A study of Homo sapiens with 6 samples.

Results

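Glycolysis turns glucose into pyruvate, and 10 genes of that route were followed in KHM-5M cells, an anaplastic thyroid cancer line, treated with sodium selenite (SS) alone or together with N-acetylcysteine (NAC), a thiol antioxidant. The genes were the glucose transporter SLC2A1 and the enzymes HK1, HK2, PFKP, ALDOA, GAPDH, PGK1, ENO1, PKM and LDHA. They were taken by symbol from the gene table of the series, where all 10 were found among 17687 genes. RNA-seq had been done on 3 groups of 2 libraries each: control cells given PBS, cells given SS, and cells given NAC and SS (SS+NAC). No group received NAC alone, and the labels of the sequenced cells give no dose or exposure time. The titles of the control and SS libraries hold a number without a unit. Each library held between 17645545 and 23810056 expected counts, and 14005 genes passed the filter on low counts, all 10 members among them. Their lowest count in any library was 643, for HK2, and their highest 291525, for GAPDH. The methods of the study call the 2 libraries of a group biological replicates, and the labels do not say how their cultures were kept apart. The p-values measure the spread between these libraries.

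Glucose enters the cell through facilitative transporters, of which GLUT1, encoded by SLC2A1, is the most widespread. Hexokinases trap it as glucose 6-phosphate, phosphofructokinase commits it to breakdown, aldolase splits the sugar, and the enzymes from glyceraldehyde-3-phosphate dehydrogenase to pyruvate kinase recover ATP and NADH. Lactate dehydrogenase then turns pyruvate into lactate and restores NAD+. Many tumours, poorly differentiated thyroid cancers among them, take up glucose strongly, which is the basis of their imaging with labelled deoxyglucose. Selenite is reduced at the cost of thiols and can generate reactive oxygen species, and NAC was given in the study to counter them.

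The members lie on 8 chromosomes and differ in transcript length, which mattered for the results. In GENCODE release 29 on GRCh38, SLC2A1 (gene identifier 6513 in the table) lies at chr1:42925375-42959176 on the minus strand. The hexokinase genes HK1 (3098) and HK2 (3099) lie at chr10:69269984-69401884 and chr2:74833981-74893359, both on the plus strand. PFKP (5214), the platelet-type phosphofructokinase, lies at chr10:3066333-3137712 and ALDOA (226), aldolase A, at chr16:30064164-30070457, both on the plus strand. GAPDH (2597) lies at chr12:6533927-6538374 and PGK1 (5230), phosphoglycerate kinase, at chrX:77910739-78129296, both on the plus strand. ENO1 (2023), alpha-enolase, lies at chr1:8861000-8879250 and PKM (5315), the muscle-type pyruvate kinase, at chr15:72199029-72231822, both on the minus strand. LDHA (3939), the A subunit of lactate dehydrogenase, lies at chr11:18394388-18408425 on the plus strand. The effective transcript length, which is the length available to reads as derived from the deposited counts and FPKM, ran from 1278 bases for GAPDH and 1579 for ALDOA to 6665 for HK2. GAPDH stood at percentile 10.1 of the tested genes in length, SLC2A1 (3706 bases) at 62.2, HK1 (3601 bases) at 60.4 and HK2 at 90.4. GENCODE names 62 pseudogene copies after GAPDH, 6 after LDHA, 5 after PKM and 4 after ENO1, so some reads of these genes could have been split between near-identical copies. The table counts genes, so the M1 and M2 forms of PKM were not separated.

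The upstream sequences of 4 members are shown because they include the transporter, HK2, which was lower in SS with TMM scaling but not with a length offset, and PGK1 and LDHA, enzymes of the later steps. All 10 members were matched by symbol to 23 transcription starts in the RefSeq promoter table (GRCh38.p14), and the 250 bases before each start were searched on both strands. The first motif was ACGTG, the core read by hypoxia-inducible factors. The second was GCGTG, the other common form of that core. The third was CACGTG, an E-box read by MYC and MLX-type factors, which contains the first motif on both strands. Capitals mark the first 2 motifs and their reverse complements, and where a gene had more than 1 start the most upstream is shown. The window of SLC2A1 is chr1:42958869-42959118 on the minus strand, that of HK2 chr2:74833877-74834126, that of PGK1 chrX:78103998-78104247 and that of LDHA chr11:18394313-18394562, all 3 on the plus strand.
SLC2A1: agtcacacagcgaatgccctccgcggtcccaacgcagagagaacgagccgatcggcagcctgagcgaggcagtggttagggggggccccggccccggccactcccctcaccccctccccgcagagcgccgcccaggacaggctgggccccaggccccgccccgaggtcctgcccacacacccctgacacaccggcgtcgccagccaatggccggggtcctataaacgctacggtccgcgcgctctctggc
HK2: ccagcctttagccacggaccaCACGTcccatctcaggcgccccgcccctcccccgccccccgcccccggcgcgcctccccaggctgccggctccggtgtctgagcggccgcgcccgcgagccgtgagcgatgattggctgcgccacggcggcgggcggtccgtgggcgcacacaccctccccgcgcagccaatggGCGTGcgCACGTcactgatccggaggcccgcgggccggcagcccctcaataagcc
PGK1: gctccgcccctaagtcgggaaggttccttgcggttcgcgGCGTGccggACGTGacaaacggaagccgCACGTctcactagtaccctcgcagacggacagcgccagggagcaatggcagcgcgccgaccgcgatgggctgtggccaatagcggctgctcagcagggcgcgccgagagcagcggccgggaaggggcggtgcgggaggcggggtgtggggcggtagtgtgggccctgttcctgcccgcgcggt
LDHA: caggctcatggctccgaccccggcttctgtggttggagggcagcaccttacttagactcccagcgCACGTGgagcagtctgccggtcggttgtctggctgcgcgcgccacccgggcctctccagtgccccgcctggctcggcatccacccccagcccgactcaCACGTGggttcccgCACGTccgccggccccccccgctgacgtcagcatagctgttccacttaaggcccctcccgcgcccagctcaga
None of the motifs was found in the SLC2A1 window, whereas those of HK2 and PGK1 each held 2 matches of ACGTG and 1 of GCGTG, and that of LDHA held 5 of ACGTG, 4 of them in 2 CACGTG boxes. In all, 6 of the 10 members had ACGTG before at least 1 start, 6 had GCGTG and 4 had CACGTG. Over the 35116 starts of the promoter table, 18.5% had ACGTG, 32.2% had GCGTG and 6.34% had CACGTG. Over the 23 member starts the numbers were 9, 7 and 4, but several of these windows belong to the same gene and overlap. A match describes letters in a window and is not a binding site. GENCODE places its first transcripts further upstream than RefSeq for these genes, so the windows of SLC2A1 and PGK1 lie inside the GENCODE gene and those of HK2 and LDHA overlap its first bases.

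Levels were compared between genes in TPM, which corrects for transcript length. In control cells GAPDH was at 13515 ± 465 TPM (SD, n = 2) and had the highest TPM of any gene in all 6 libraries. ENO1 followed at 3489 ± 91.4 TPM, PKM at 2647 ± 110 TPM, LDHA at 1456 ± 11.0 TPM and ALDOA at 1417 ± 41.8 TPM. The last 2 did not differ beyond their spread. The other members were expressed at lower levels. PGK1 had 554 ± 5.13 TPM and PFKP 272 ± 4.16 TPM in control cells, HK1 had 128 ± 1.18 TPM, SLC2A1 had 74.7 ± 3.10 TPM and HK2 had 11.0 ± 0.679 TPM. This order was the same in the group means of SS and of SS+NAC, apart from LDHA and ALDOA. There ALDOA was above LDHA, at 1658 ± 11.4 against 1480 ± 27.6 TPM in SS and at 1583 ± 7.32 against 1356 ± 59.9 TPM in SS+NAC. Together the 10 genes made up 2.30% and 2.41% of the TPM of the control libraries, 2.58% and 2.71% in SS, and 2.52% and 2.28% in SS+NAC. The SS libraries were the highest, but SS+NAC replicate 1 came close to them.

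**Figure D1:**
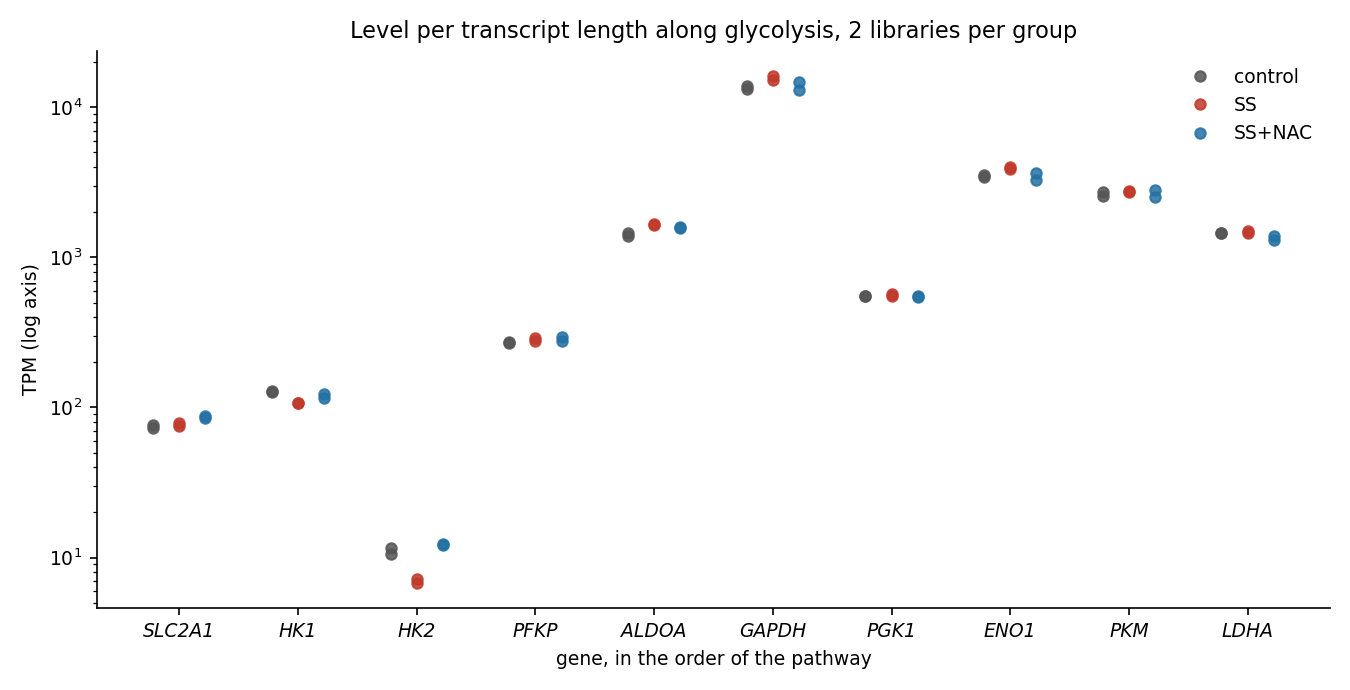
TPM (log axis) of the 10 members in the order of the pathway, with 1 point per library and 2 libraries per group (grey control, red SS, blue SS+NAC). The levels span from about 11.0 TPM for HK2 to 13515 TPM for GAPDH in control cells, and HK1 and HK2 are the members whose SS points sit below both other groups.

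At most steps a single isozyme held nearly all of the transcripts. ALDOA made up 99.5% of the aldolase TPM of control cells and ENO1 97.9% of the enolase TPM, and the liver-type pyruvate kinase PKLR and the testis genes PGK2 and GAPDHS were near 0. HK1 made up 91.6 ± 0.505% of the hexokinase TPM of control cells and HK2 7.90 ± 0.370%. In SS the HK2 share was 6.11 ± 0.178%, and in SS+NAC it was 9.08 ± 0.223%. The 3 groups therefore did not overlap in this share, which was lowest with SS alone. HK2 is far longer than HK1. With the length offset of the later analysis the changes in SS against control were 0.06 for HK2 and 0.13 for HK1. The lower share in SS than in control thus depends on the length trend. With the offset they were -0.05 and 0.28 in SS against SS+NAC, and 0.10 and -0.15 in SS+NAC against control. In these 2 comparisons HK2 and HK1 stayed apart in the direction of the shares. PFKP held 64.7 ± 0.101% of the phosphofructokinase TPM in control, 68.4 ± 1.07% in SS and 65.8 ± 0.464% in SS+NAC, and the liver type PFKL held 22.6 ± 0.0591%, 19.4 ± 0.667% and 21.7 ± 0.323%. LDHA and LDHB, whose subunits favour lactate and pyruvate formation respectively, were close to each other. The ratio of LDHA to LDHB in TPM was 1.39 ± 0.0472 in control, 1.46 ± 0.0586 in SS and 1.37 ± 0.133 in SS+NAC. The libraries gave 1.36 and 1.42 in control, 1.42 and 1.5 in SS, and 1.47 and 1.28 in SS+NAC. At these digits control and SS met, and SS+NAC overlapped both. Among the transporters SLC2A1 held 60.9 ± 1.95% of the TPM in control cells, ahead of SLC2A8 (12.1 ± 0.462%) and SLC2A3 (9.38 ± 0.435%), and 62.8 ± 1.91% in SS. These shares are descriptions and were not tested.

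In counts scaled with TMM, most of the pathway was modestly higher after SS and near the control level when NAC was given as well. Compared to control, SS cells had higher expression of 8 of the 10 members and lower expression of HK2 in this fit, and HK1 did not pass the test. A length offset, described with the length trend, left 1 member called higher and none lower, and on log2(TPM + 1) 1 was higher and 2 were lower, so the split depends on the scale. Over all 14005 tested genes, 587 were called higher and 705 lower with the offset, and 712 and 5240 on log2(TPM + 1). Calls rest on the quasi-likelihood test of edgeR over all 14005 genes, with a Benjamini-Hochberg adjusted p of at most 0.05. This was a comparison in which 40.0% of all tested genes were called (18.6% higher and 21.4% lower), so calls were common in it. The median log2 fold change of the members was 0.31, against 0.00 over all tested genes. The control and SS libraries did not overlap in 9 of the 10 members, and did not overlap in 73.2% of all genes. In RNA from whole cultures, a change in the make-up of the cells and a change in RNA per cell cannot be told apart.

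**Figure D2:**
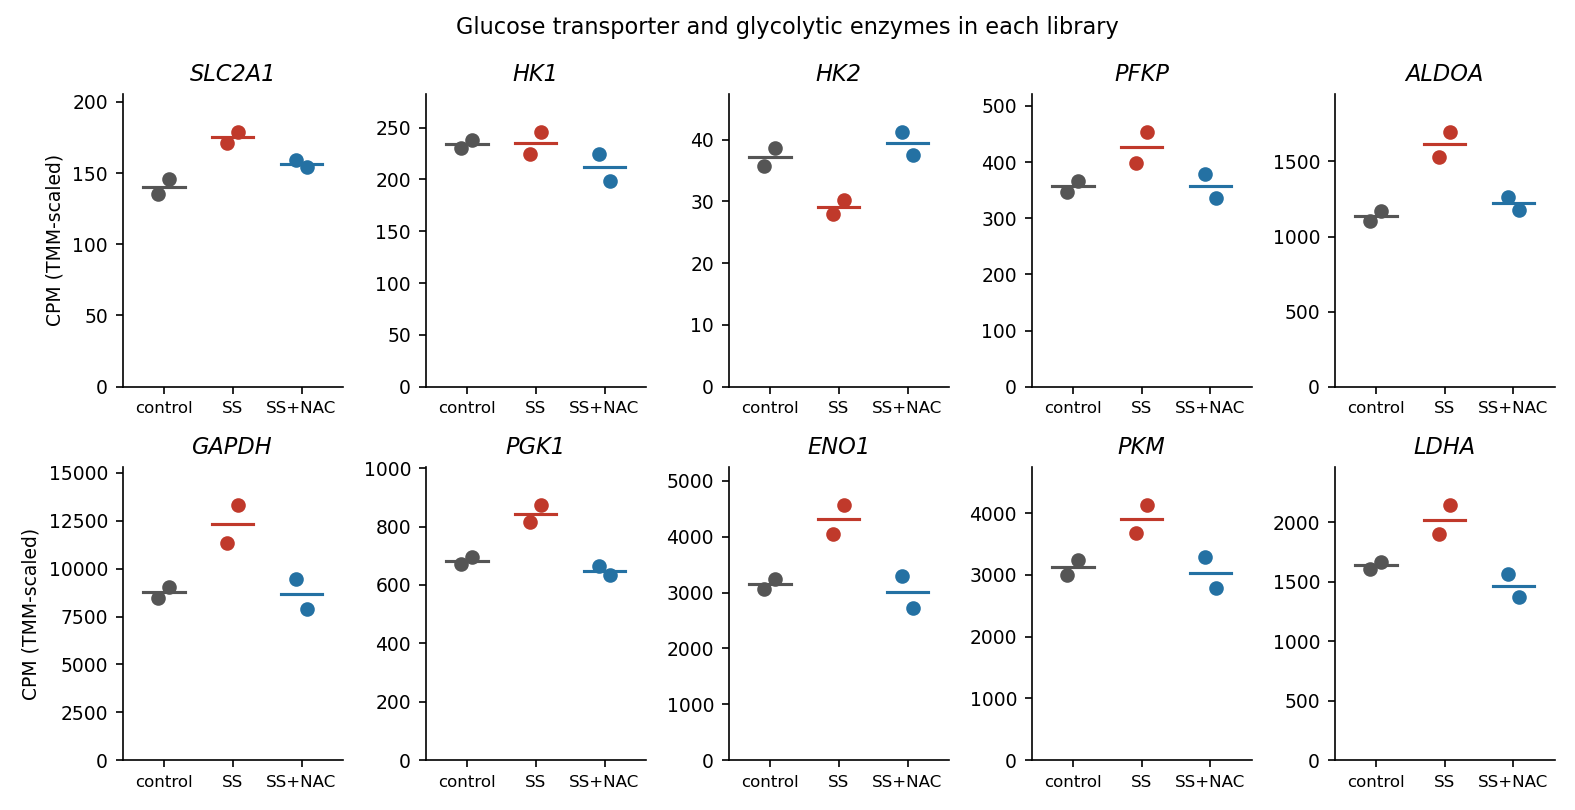
CPM (counts scaled to library size with TMM) of the 10 members in each library, with 1 panel per gene, points for the 2 libraries of a group and a line for their mean. Both SS points lie above all control points in 8 panels and below them in HK2, and the SS+NAC points lie near the control points in most panels.

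SLC2A1, which brings glucose into the cell, had 135 and 146 CPM (counts scaled to library size with the TMM factors of edgeR) in the control libraries, 171 and 179 in SS, and 159 and 154 in SS+NAC. Both SS libraries were the highest, both control libraries the lowest, and the SS+NAC libraries lay between them without overlap. The log2 fold change of SS against control was 0.32 (SE 0.0753), a rise of 24.5%, with an edgeR adjusted p of 0.00748. The difference of SS+NAC from control (0.16, SE 0.0753) and that of SS from SS+NAC (0.16, SE 0.0748) did not pass the test, with edgeR adjusted p of 0.337 and 0.110. In this fit SLC2A1 thus stood midway in the cells given both agents and was not separated from either side. That did not hold with the length offset or in TPM, as given with the length trend and the scale of the values.

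The 2 hexokinases behaved differently. HK1, the housekeeping form bound to mitochondria, had 230 and 238 CPM in control, 225 and 246 in SS, and 225 and 198 in SS+NAC. The control and SS libraries overlapped, and the log2 fold change between them was 0.01 (SE 0.0856, edgeR adjusted p = 0.934). Its sign was not fixed, being -0.08 both with library totals in place of TMM and on FPKM, and -0.25 on TPM (limma adjusted p = 0.00855). HK2, the inducible form that is prominent in muscle and in many tumours, had 35.7 and 38.7 CPM in control, 28.0 and 30.2 in SS, and 41.3 and 37.6 in SS+NAC. Both SS libraries were below the other 4, and the control and SS+NAC libraries overlapped. HK2 fell by 0.36 on the log2 scale in SS against control (SE 0.0879, edgeR adjusted p = 0.00895) and was lower by a log2 fold change of -0.44 in SS than in SS+NAC (SE 0.0867, edgeR adjusted p = 0.00262). HK2 is also the longest transcript of the 10, and its value moved most when length was taken into account, as given with the length trend.

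PFKP and ALDOA carry the pathway through the preparatory steps. PFKP had 346 and 367 CPM in control, 399 and 454 in SS, and 378 and 336 in SS+NAC. The SS libraries were the highest, and the difference from control was close to the threshold, with a log2 fold change of 0.26 (SE 0.0917, edgeR adjusted p = 0.0442). PFKP was not called there with library totals in place of TMM (0.16, edgeR adjusted p = 0.0811) or with no filter on low counts. ALDOA had 1101 and 1172 CPM in control, 1530 and 1698 in SS, and 1266 and 1176 in SS+NAC. Its SS libraries stood clear of the other 4, and its log2 fold change of 0.51 (SE 0.0877, edgeR adjusted p = 0.00150), a rise of 42.0%, was close to that of GAPDH.

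GAPDH and PGK1 catalyse the first steps that yield NADH and ATP. GAPDH had 8461 and 9070 CPM in control, 11331 and 13315 in SS, and 9450 and 7889 in SS+NAC. The SS libraries were the highest but also differed from each other, as did those of SS+NAC, whose range enclosed both control values. The log2 fold change of SS against control was 0.49 (SE 0.116, edgeR adjusted p = 0.00724). GAPDH is widely used as a reference gene, and in CPM it was 40.6% higher in SS than in control. PGK1 had 672 and 695 CPM in control, 814 and 873 in SS, and 666 and 633 in SS+NAC. It was higher in SS than in the other 4 libraries, with a log2 fold change of 0.30 against control (SE 0.0786, edgeR adjusted p = 0.0114).

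The last enzymes followed the same pattern. ENO1, which forms phosphoenolpyruvate, had 3059 and 3241 CPM in control, 4055 and 4565 in SS, and 3292 and 2733 in SS+NAC. PKM, which forms pyruvate, had 2998 and 3246 CPM in control, 3687 and 4129 in SS, and 3298 and 2781 in SS+NAC. LDHA had 1611 and 1662 CPM in control, 1898 and 2143 in SS, and 1562 and 1372 in SS+NAC. In all 3 genes both SS libraries were above the other 4, and for LDHA both SS+NAC libraries were also below both control libraries. The log2 fold changes of SS against control were 0.45 for ENO1 (SE 0.107, edgeR adjusted p = 0.00738), 0.32 for PKM (SE 0.105, edgeR adjusted p = 0.0315) and 0.30 for LDHA (SE 0.0952, edgeR adjusted p = 0.0267).

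The comparison of SS with SS+NAC set cells given SS alone against cells given NAC as well. Without a group given NAC alone, an effect of NAC itself cannot be told apart from a changed response to SS. The comparison shares the SS libraries with the one above and is not independent of it. PFKP, ALDOA, GAPDH, PGK1, ENO1, PKM and LDHA were higher in SS, HK2 was lower, and SLC2A1 and HK1 did not pass the test, which makes 7 members higher and 1 lower. The length offset gave 5 higher and none lower, with SLC2A1 and HK1 called and PFKP, ALDOA, GAPDH, PKM and HK2 not, and log2(TPM + 1) gave none higher and 2 lower. Over all tested genes, 986 were called higher and 1033 lower with the offset, and 624 and 6490 on log2(TPM + 1). With TMM 42.7% of all tested genes were called, 19.6% higher and 23.1% lower. The median of the members was 0.37, against -0.03 over all tested genes. ENO1 had a log2 fold change of 0.52 (SE 0.108, edgeR adjusted p = 0.00351), GAPDH 0.51 (SE 0.116, edgeR adjusted p = 0.00575) and LDHA 0.46 (SE 0.0953, edgeR adjusted p = 0.00336). PFKP was again near the threshold at 0.25 (SE 0.0916, edgeR adjusted p = 0.0448). It was not called with library totals (0.12, edgeR adjusted p = 0.183) or on FPKM (0.18, limma adjusted p = 0.0522). The SS and SS+NAC libraries did not overlap in CPM in any of the 10 members, although the nearest libraries of HK1 differed by less than the digits printed above, and did not overlap in 70.4% of all genes. Side by side with SS against control, ALDOA had 0.40 here and 0.51 there, PGK1 0.38 and 0.30, and PKM 0.36 and 0.32.

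In SS+NAC against control, none of the 10 members was called by edgeR, where 2.01% of all tested genes were. None of them had an unadjusted p under 0.05 in edgeR, and DESeq2 called none. Over all 14005 tested genes edgeR called 282 and DESeq2 324, and 2256 had an unadjusted p under 0.05 in edgeR. The members' log2 fold changes ran from -0.16 for LDHA to 0.16 for SLC2A1, with a median of -0.03 against 0.00 over all genes, and the lowest edgeR adjusted p was 0.337. The libraries did not overlap in 5 members, with SLC2A1 and ALDOA higher and HK1, PGK1 and LDHA lower in SS+NAC, where 47.6% of all genes did not overlap. A p above the threshold does not show that the groups were equal: for LDHA the difference of -0.16 had an SE of 0.0952.

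**Figure D3:**
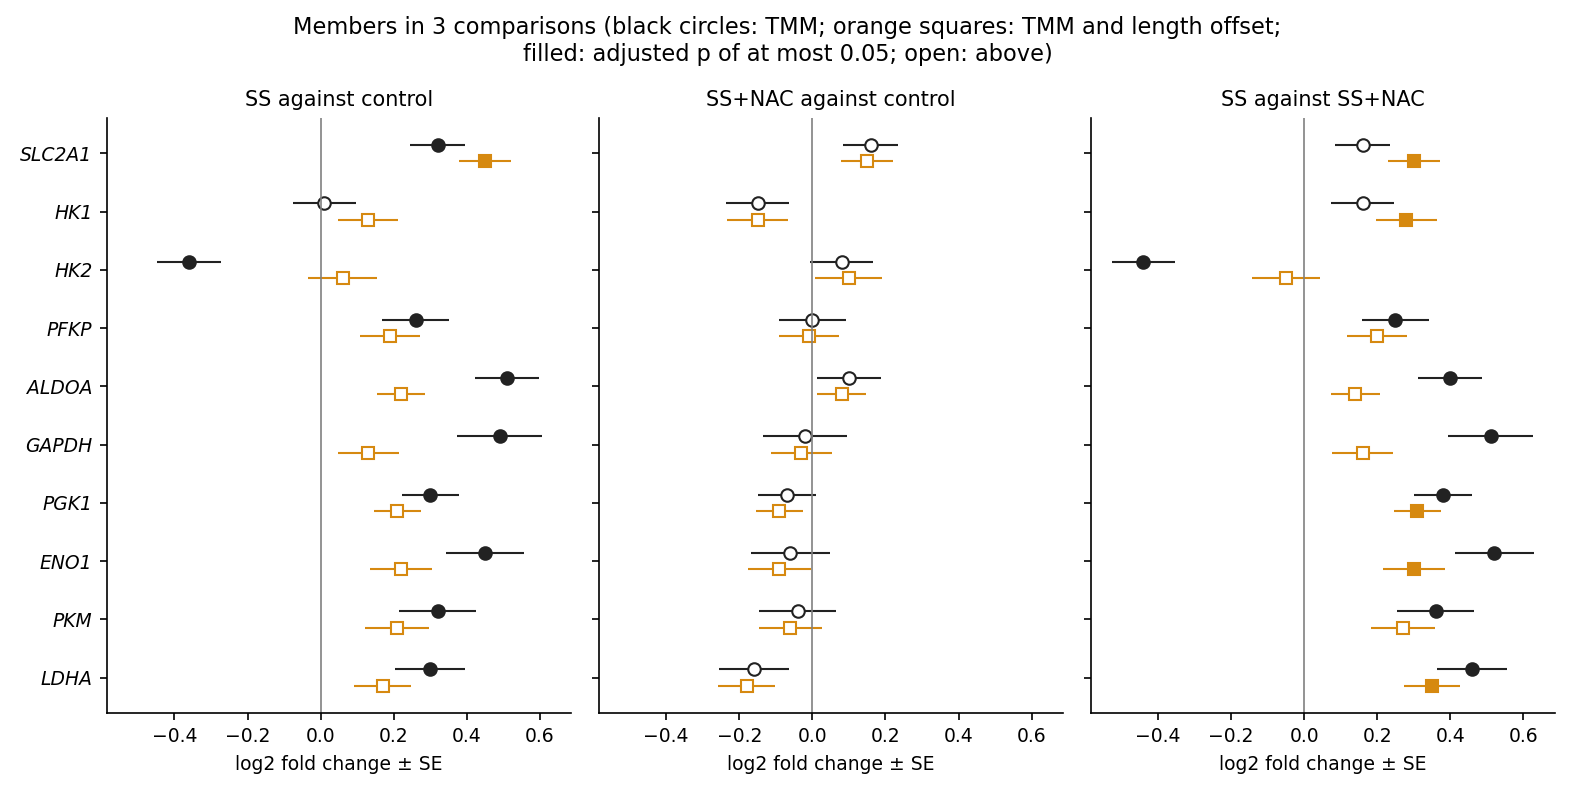
Log2 fold changes of the members with their standard errors in the 3 comparisons, from the TMM-scaled fit (black circles) and with a length offset added (orange squares), with filled symbols at an adjusted p of at most 0.05. In SS against control the filled circles give way to a single filled square, that of SLC2A1, and in SS+NAC against control all symbols are open.

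Transcript length moved with these results. Across the 14005 tested genes, the Spearman correlation of the log2 fold change with effective length was -0.68 in SS against control, -0.64 in SS against SS+NAC and -0.04 in SS+NAC against control. This is a description across genes, which are not independent replicates. Short transcripts were thus higher and long ones lower in the SS libraries, and 7 of the 10 members are shorter than the median tested gene (3048 bases). A length offset, which removes the smooth trend of each library with length before the test, changed the members in unequal ways. GAPDH went from 0.49 to 0.13 (SE 0.0833), ALDOA from 0.51 to 0.22 (SE 0.0663) and ENO1 from 0.45 to 0.22 (SE 0.0854) in SS against control, with edgeR adjusted p of 0.371, 0.0660 and 0.144. PGK1 (0.30 to 0.21), PKM (0.32 to 0.21), PFKP (0.26 to 0.19) and LDHA (0.30 to 0.17) moved less and were not called either, with edgeR adjusted p of 0.0686, 0.161, 0.192 and 0.200. HK2 went from -0.36 to 0.06 (SE 0.0942, edgeR adjusted p = 0.763), so its fall did not hold. SLC2A1, a fairly long transcript, went the other way, from 0.32 to 0.45 (SE 0.0719, edgeR adjusted p = 0.00509). It was the single member called with the offset in SS against control, where 9.23% of all genes were called.

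With the same offset, 5 members were called in SS against SS+NAC, all of them higher in SS, where 14.4% of all genes were called. They were LDHA (0.35, SE 0.0775, edgeR adjusted p = 0.0173), PGK1 (0.31, SE 0.0646, edgeR adjusted p = 0.0134), SLC2A1 (0.30, SE 0.0714, edgeR adjusted p = 0.0222), ENO1 (0.30, SE 0.0855, edgeR adjusted p = 0.0406) and HK1 (0.28, SE 0.0826, edgeR adjusted p = 0.0475). HK2 was at -0.05 and no longer called. PFKP (0.25 to 0.20) and PKM (0.36 to 0.27) kept more of their size than ALDOA (0.40 to 0.14) and GAPDH (0.51 to 0.16), but none of these 4 was called. In SS+NAC against control the offset left the members uncalled, as it did before, with 2.01% of all genes called. The members' medians with the offset were 0.20 in SS against control and 0.28 in SS against SS+NAC, both against 0.01 over all genes. Whether the length trend belongs to the cells or to the making of the libraries was not tested.

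**Figure D4:**
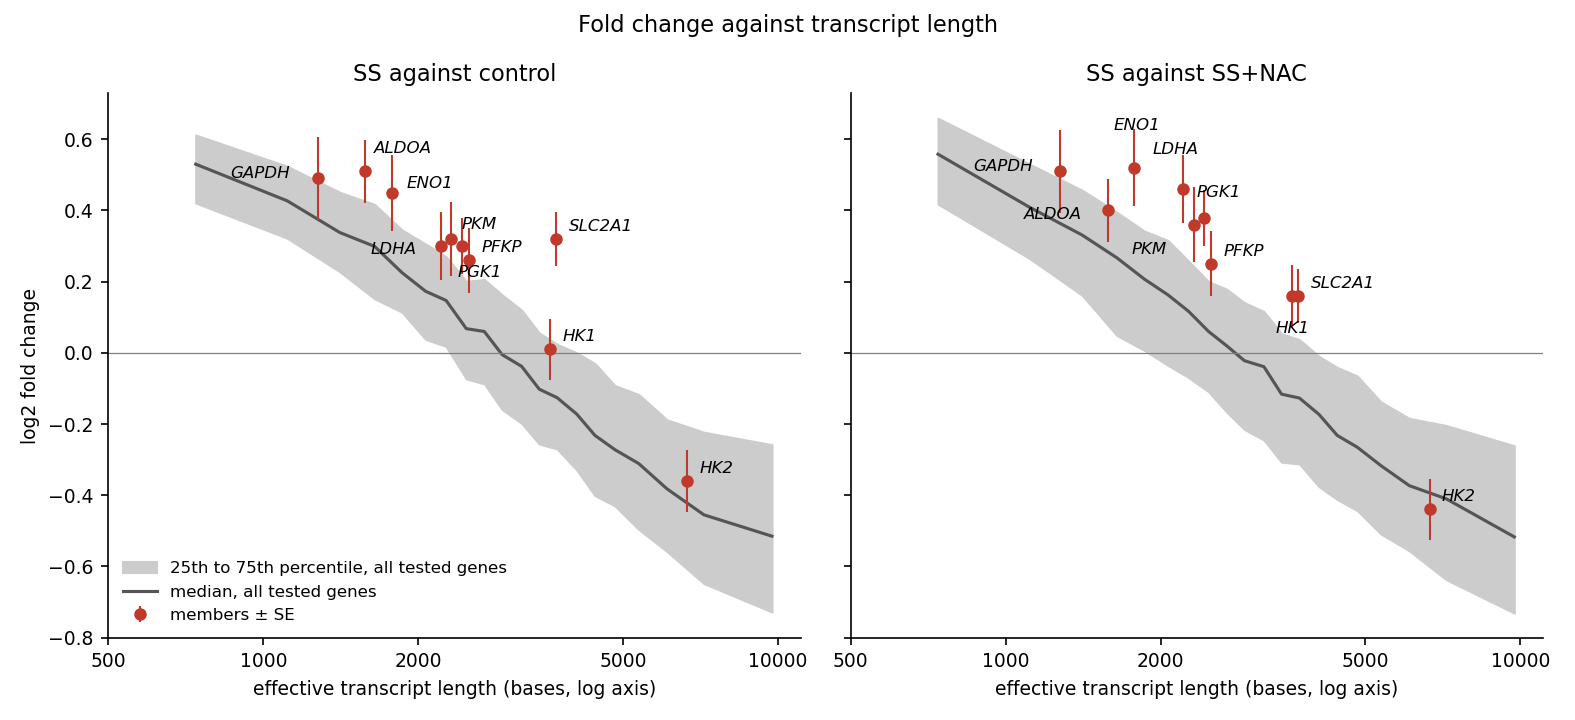
Log2 fold change against effective transcript length (bases, log axis) in SS against control and SS against SS+NAC. The line is the median and the band the 25th to 75th percentile of all tested genes in 20 length bins, and the red points are the members with their standard errors. HK2 lies close to the line below 0, and most of the short members lie above 0, where the line itself is. SLC2A1 lies above the band in both panels, and so do PFKP, PGK1, ENO1 and PKM.

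The scale of the values mattered as well. In TPM, which adds up to a fixed total in each library, SLC2A1 had 72.5 and 76.8 in control, 78.4 and 74.9 in SS, and 85.2 and 88.0 in SS+NAC. On that scale control and SS overlapped and the SS+NAC libraries were the highest. Control and SS also overlapped in TPM for PGK1, PKM and LDHA, whereas PFKP, ALDOA, GAPDH and ENO1 were higher in both SS libraries than in both control libraries. With limma on log2(TPM + 1), an alternative added after the data were seen, the median of all genes moved to -0.20 in SS against control and to -0.27 in SS against SS+NAC. Those of the members moved to 0.04 in both, which left them above the median of all genes by 0.24 and 0.30. In SS against control ALDOA was then called higher (0.23, limma adjusted p = 0.0102), and HK1 and HK2 lower. In SS against SS+NAC the values of SLC2A1 (-0.17), HK1 (-0.17) and PFKP (-0.01) turned negative, and HK1 and HK2 were called lower. With library totals in place of TMM, the median of all genes in SS against SS+NAC moved from -0.03 to -0.17, and the members' median lay 0.40 above that of all genes with either scaling. Of the genes called in SS against control 46% were higher with TMM, 32% with library totals and 12% on TPM. In SS against SS+NAC these shares were 46%, 27% and 8.8%.

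Many of the calls in SS against control were lost when a control or SS library was left out. Calls over all tested genes also became fewer in each of those fits. Without control replicate 1 or without SS replicate 2, ALDOA was the member still called higher and HK2 the member still called lower. Without control replicate 2, SLC2A1, ALDOA, GAPDH and ENO1 were called higher and HK2 was not called, and without SS replicate 1 the 8 members were called higher and HK2 was not. In SS against SS+NAC, leaving out SS replicate 2 left ALDOA, PGK1, ENO1 and LDHA higher and HK2 lower. PFKP also lost its call there without either control library and without SS+NAC replicate 2, PKM lost its call without SS+NAC replicate 2, and HK1 gained a call without SS+NAC replicate 1. The remaining library of a group is then assumed to vary like the others. All values of the 8 members called higher in SS against control kept their sign in each of these 6 fits, the lowest being 0.16 for PFKP.

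The rest of glycolysis was read from a list of 22 other enzyme genes, of which 15 were tested. In SS against control 6 were called higher and none lower by edgeR, with a median of 0.23. DESeq2 also called 6 higher and none lower, with PGAM1 (adjusted p = 0.0274) in place of ENO3 (adjusted p = 0.0696). Of all tested genes 40.0% were called in this comparison, 18.6% higher and 21.4% lower, so the list was called about as often as all tested genes, and in 1 direction. Among them were ALDOC, a brain-type aldolase (0.67, SE 0.156), the muscle enolase ENO3 (0.55, SE 0.196), TPI1, which interconverts the triose phosphates (0.50, SE 0.102), and GPI, which makes fructose 6-phosphate (0.34, SE 0.0834). Their edgeR adjusted p were 0.00639, 0.0449, 0.00346 and 0.00807. TPI1 is abundant, with 1450 and 1671 CPM in SS against 1046 and 1163 in control and 1121 and 987 in SS+NAC, so the SS libraries stood above the rest. With the length offset GPI alone of the 15 was called, at 0.55 (SE 0.0807, edgeR adjusted p = 0.00369), while TPI1 was at 0.15, and 9.23% of all genes were called. On TPM GPI was at 0.07 (limma adjusted p = 0.385). In SS against SS+NAC 6 were higher and 2 lower, with TPI1 at 0.57 (SE 0.102), the mutase PGAM1 at 0.44 (SE 0.0926) and LDHB at 0.38 (SE 0.0759), and edgeR adjusted p of 0.00168, 0.00392 and 0.00300. Of all tested genes 42.7% were called there. With the length offset none of these 3 was called, at 0.24 (edgeR adjusted p = 0.0735), 0.24 (0.0567) and 0.03 (0.741). The offset left 2 genes of the list higher there, GPI (0.48, edgeR adjusted p = 0.00533) and PFKM (0.27, edgeR adjusted p = 0.0289), and 2 lower, HKDC1 and ADPGK (-0.24, edgeR adjusted p = 0.0354), where 14.4% of all genes were called. On TPM GPI was at -0.06 in this comparison.

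HKDC1, a hexokinase-like gene of low abundance, was the enzyme that differed most between SS+NAC and the other groups. It had 1.06 and 1.54 CPM in control, 1.26 and 1.46 in SS, and 3.56 and 4.36 in SS+NAC. Both SS+NAC libraries were above the other 4, which overlapped. The log2 fold change of SS+NAC against control was 1.59 (SE 0.250, edgeR adjusted p = 0.0104) and that of SS against SS+NAC was -1.54 (SE 0.244, edgeR adjusted p = 0.000896). With the length offset they were 1.58 and -1.44, and both were still called.

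Of the other glucose transporters, 9 were tested. SLC2A3, a transporter with high affinity for glucose, had 23.6 and 22.8 CPM in control, 35.4 and 28.4 in SS, and 24.5 and 27.5 in SS+NAC. In CPM it was highest in the SS libraries, with a log2 fold change of 0.46 against control (SE 0.113, edgeR adjusted p = 0.00890) and of 0.63 with the length offset (SE 0.107, edgeR adjusted p = 0.00677). It was not called with library totals (0.37, edgeR adjusted p = 0.0574), on FPKM (0.31, limma adjusted p = 0.107) or on TPM (0.16, limma adjusted p = 0.439), and without SS replicate 1 it was at 0.29. In SS against SS+NAC SLC2A3 was not called with TMM (0.29, edgeR adjusted p = 0.0531) and was called with the offset (0.47, edgeR adjusted p = 0.0171). SLC2A13, a myo-inositol transporter of the same family, was lower in SS than in control (-0.58, SE 0.137, edgeR adjusted p = 0.00731) and than in SS+NAC (-0.44, SE 0.136, edgeR adjusted p = 0.0237), and was not called with the offset in either (-0.20 and -0.08). DESeq2 did not call SLC2A13 against SS+NAC (adjusted p = 0.121). None of the 9 was called by edgeR or DESeq2 in SS+NAC against control, where edgeR called 2.01% of all genes. In edgeR 1 of the 9 had an unadjusted p under 0.05 there, as had 2256 of the 14005 tested genes.

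Regulators of glycolytic flux were mixed, with 2 of 8 tested genes higher and 3 lower in SS against control, where 18.6% and 21.4% of all genes were, and a median of -0.06. TXNIP, which restrains glucose uptake, was higher (0.46, SE 0.124, edgeR adjusted p = 0.0144) and stayed so with the length offset (0.47, SE 0.123, edgeR adjusted p = 0.0426). It was not called with library totals (0.36, edgeR adjusted p = 0.0738), on FPKM (0.35, limma adjusted p = 0.0863) or on TPM (0.20, limma adjusted p = 0.347). PFKFB2 and PFKFB3, which make the activator of phosphofructokinase, were at -0.67 (SE 0.156, edgeR adjusted p = 0.00646) and -0.24 (SE 0.0736, edgeR adjusted p = 0.0256). MLXIP, a glucose-sensing transcription factor, was at -0.55 (SE 0.0851, edgeR adjusted p = 0.000838). None of these 3 decreases was called with the offset, which put them at -0.27, -0.04 and -0.07. Against SS+NAC, TXNIP was higher in SS (0.50, SE 0.123, edgeR adjusted p = 0.00831), but was not called with library totals, on FPKM or on TPM (adjusted p = 0.0693, 0.0729 and 0.322, edgeR for the first and limma for the others). MLX was higher too (0.21, SE 0.0685, edgeR adjusted p = 0.0282), and PFKFB2 (-0.77, SE 0.152) and MLXIP (-0.39, SE 0.0848) were lower, with edgeR adjusted p of 0.00266 and 0.00424. MLX was not called with library totals (0.08, edgeR adjusted p = 0.396) or on FPKM (0.08, limma adjusted p = 0.344). With the offset TXNIP was still called (0.52, edgeR adjusted p = 0.0200), while MLX (0.14), PFKFB2 (-0.38) and MLXIP (0.07, a reversed sign) were not, with edgeR adjusted p of 0.172, 0.108 and 0.618. TIGAR, a phosphatase that lowers glycolytic flux and is named here after its values were seen, was called with the offset alone (0.65 in SS against control and 0.58 in SS against SS+NAC, edgeR adjusted p = 0.00413 and 0.00458). In these comparisons TIGAR was at 0.16 and 0.12 with TMM and at -0.10 and -0.18 on TPM.

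Beyond pyruvate, 17 genes of pyruvate and lactate fate were tested, with 5 higher and 3 lower in SS against control and a median of 0.03, where 40.0% of all tested genes were called. MPC1 and MPC2, which form the mitochondrial pyruvate carrier, were at 0.48 (SE 0.0948, edgeR adjusted p = 0.00282) and 0.53 (SE 0.0832, edgeR adjusted p = 0.000870). PDHB, a subunit of pyruvate dehydrogenase, was at 0.49 (SE 0.0734, edgeR adjusted p = 0.000730). These are short transcripts, and with the length offset they were at 0.06, 0.11 and 0.19 and were not called. The monocarboxylate transporter SLC16A7 was lower in SS than in control (-0.80, SE 0.146, edgeR adjusted p = 0.00201) and than in SS+NAC (-1.02, SE 0.143, edgeR adjusted p = 0.000539). With the offset the second difference was -0.46 (SE 0.136, edgeR adjusted p = 0.0481) and the first was not called. Against SS+NAC, 5 genes of this list were higher and 3 lower in SS, where 42.7% of all genes were called. In SS+NAC against control none of the list was called by edgeR or DESeq2 or had an unadjusted p under 0.05 in edgeR. Of the 14005 genes tested there, edgeR called 2.01%, and 2256 had an unadjusted p under 0.05.

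Among 5 tested genes of gluconeogenesis, PCK2, the mitochondrial phosphoenolpyruvate carboxykinase, had 33.2 and 35.0 CPM in control, 38.8 and 45.7 in SS, and 57.4 and 55.4 in SS+NAC. The 3 groups did not overlap, and the cells given both agents were the highest. The log2 fold change was 0.31 in SS against control (SE 0.0923, edgeR adjusted p = 0.0217), 0.73 in SS+NAC against control (SE 0.0909, edgeR adjusted p = 0.00244) and -0.42 in SS against SS+NAC (SE 0.0889, edgeR adjusted p = 0.00399). With the length offset these were 0.21, 0.71 and -0.50, and the first was no longer called. Nor was it with library totals (0.21, edgeR adjusted p = 0.0662), on FPKM (0.18, limma adjusted p = 0.0722) or on TPM (0.01, limma adjusted p = 0.902), where control and SS overlapped. G6PC3, a glucose 6-phosphatase found in most tissues, was at 0.32 in SS against control (SE 0.0989, edgeR adjusted p = 0.0265) and at 0.01 with the offset. PCK2 and HKDC1 were the genes of these lists that were called in SS+NAC against control.

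The calls of these other genes also depended on single libraries. Of the 16 named in SS against control, 5 were called with each of the 6 libraries left out, which were MLXIP, MPC1, MPC2, PDHB and SLC16A7. PFKFB3 lost its call without any 1 of the 4 control and SS libraries. ENO3, G6PC3 and TXNIP lost theirs without any of 3 libraries, GPI, PCK2 and PFKFB2 without either of 2, and ALDOC, TPI1, SLC2A3 and SLC2A13 without 1. Of the 14 named by rank in SS against SS+NAC, MPC1, MPC2 and PDHB among them, MLX and SLC2A13 lost their calls. The others of the 14 kept theirs throughout. GPI, PFKM and ADPGK are not among the 14, and none of them kept its call throughout. Leaving out 1 library moved some values by over 1.5 times: TXNIP ran from 0.30 to 0.72 in SS against SS+NAC, and in SS against control ENO3 ran from 0.30 to 0.86, SLC2A3 from 0.29 to 0.61 and PCK2 from 0.19 to 0.42. In SS+NAC against control HKDC1 lost its call without control replicate 1, where its log2 fold change was 1.36 (edgeR adjusted p = 0.0797), and PCK2 kept its call in all 6 fits.

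**Figure D5:**
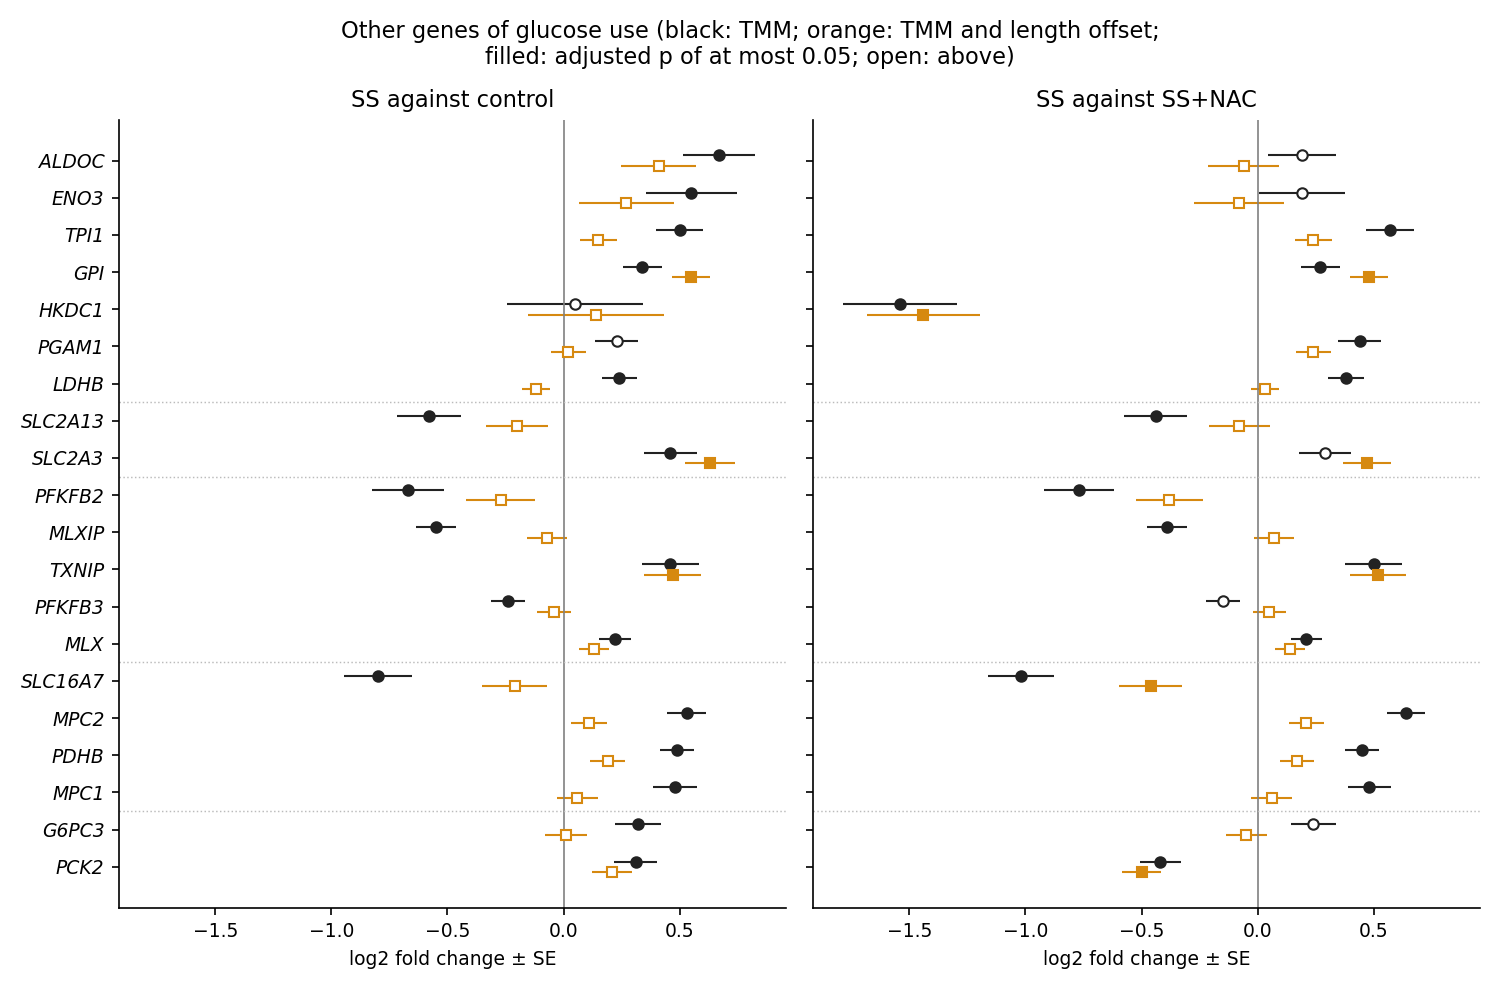
Log2 fold changes with standard errors of other genes of glucose use that were called with TMM scaling, in SS against control and SS against SS+NAC, with dotted lines between enzymes, transporters, regulators, pyruvate and lactate genes and gluconeogenesis. Black circles are the TMM-scaled fit and orange squares the fit with the length offset, filled at an adjusted p of at most 0.05. GPI, SLC2A3 and TXNIP are filled orange on the right of 0 in SS against control, and HKDC1 lies far to the left in SS against SS+NAC.

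The genes whose pattern over the 6 libraries was most like that of SLC2A1 and LDHA were picked by the Pearson correlation of log2 CPM among the 9527 genes whose mean reached 10 CPM. For LDHA they were LSM4, KARS, MRPS34, CLK3 and ARL6IP4, with r between 0.998 and 0.999. For SLC2A1 they were SARS, WDR25, NFYC, GOT1 and ASMTL, with r of 0.994 or 0.995. With so many genes and 6 libraries in 3 groups, values this high are a description of the ranking only.

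Defining markers were checked against the label of a thyroid cancer line. Of 9 thyroid genes, 7 were in the table, and their summed level was 164 and 155 TPM in control, 147 and 131 in SS, and 156 and 163 in SS+NAC. Most of it was PAX8, at a mean of 123 TPM, while thyroglobulin (TG) was at 0.22 to 0.30 TPM and NKX2-1 at 0.07 to 0.20 TPM. HHEX was called higher in SS than in control (0.29, SE 0.0810, edgeR adjusted p = 0.0165) and than in SS+NAC (0.33, SE 0.0800, edgeR adjusted p = 0.00762), and in neither with the length offset. Nor was it called in either with library totals (edgeR adjusted p = 0.127 and 0.118), and on TPM it was at 0.01 and -0.01. DESeq2 did not call it in SS against control (adjusted p = 0.0543). FOXE1 was lower but not called with TMM, at -0.43 and -0.80 (edgeR adjusted p = 0.0502 for the second). The second was called lower with library totals (-0.94, edgeR adjusted p = 0.035) and on FPKM and TPM (limma adjusted p = 0.0421 and 0.0183). PAX8 was not called with TMM. It was called higher in SS than in SS+NAC with the offset (0.29, edgeR adjusted p = 0.0170) and lower on TPM (-0.23, limma adjusted p = 0.0241), so its direction depended on the scale. TSHR and DUOX2 were not analysed here. The 5 epithelial markers summed to 2076 and 2122 TPM in control, 2258 and 2503 in SS, and 2035 and 1715 in SS+NAC, led by KRT8. KRT8 and KRT18 were called higher in SS than in control (0.48, SE 0.124, and 0.44, SE 0.122, edgeR adjusted p = 0.0111 and 0.0152) and than in SS+NAC. KRT19 was not called with TMM (0.32 and 0.89), nor was EPCAM (-0.22 and -0.11), which was called lower in SS on TPM in both comparisons (-0.41 and -0.36, limma adjusted p = 0.0315 and 0.0444). CDH1 was at 0.14 to 0.29 TPM. The 5 mesenchymal markers summed to between 7232 and 7811 TPM, led by VIM at a mean of 6160 TPM. VIM was called higher in SS than in control (0.40, SE 0.0998, edgeR adjusted p = 0.00935), while FN1 (-0.23), COL1A1 (-0.11) and PDGFRB (-0.29) were not called. Against SS+NAC, VIM was higher in SS (0.49, SE 0.0998, edgeR adjusted p = 0.00304) and FN1 (-0.70, SE 0.119) and COL1A1 (-0.34, SE 0.0854) were lower, with edgeR adjusted p of 0.00126 and 0.00922. In SS+NAC against control FN1 was at 0.46 and was called by DESeq2 (adjusted p = 0.00251) but not by edgeR (adjusted p = 0.0878). The directions depended on the scale. With the offset VIM (0.19), FN1 (0.25), COL1A1 (0.23) and PDGFRB (0.06) were all positive and not called in SS against control, and on TPM FN1, COL1A1 and PDGFRB were called lower there (limma adjusted p = 0.0139, 0.00440 and 0.0243). With the length offset KRT8, KRT18 and VIM were not called in SS against control. In SS against SS+NAC they stayed called, at 0.44, 0.41 and 0.30 (edgeR adjusted p = 0.0235, 0.0246 and 0.0239), and FN1 and COL1A1 did not, and FN1 was called higher in SS+NAC than in control (0.48, edgeR adjusted p = 0.0295). Whether the make-up of the cultures moved with the members was not tested. Of the 4 leukocyte markers, CD3E and PTPRC were at or below 0.77 TPM, and CD68, which other cells also express, made up most of the sum of 72.0 to 112 TPM. LYZ was at 0.80 to 1.91 TPM. CD68 was not called with TMM, at -0.13 in SS against SS+NAC (edgeR adjusted p = 0.182). There it was called lower with the offset (-0.33, edgeR adjusted p = 0.0185) and with library totals (-0.27, edgeR adjusted p = 0.022). It was also called lower there on FPKM (-0.26) and TPM (-0.46), with limma adjusted p of 0.0225 and 0.00249. The 5 endothelial markers summed to less than 1 TPM in each library.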

How the data were processed

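RNA of KHM-5M cells was captured with oligo(dT) and sequenced in single-end reads on BGISEQ-500. The authors mapped reads with HISAT2 2.0.4; the submitters' processing notes also name Bowtie2 2.2.5. The deposited table holds expected counts that the authors obtained with RSEM 1.2.12, and the FPKM and TPM values were also made by the authors with RSEM. The genome build is not given in the sources used here. The 9 columns of group means and the 9 columns of the authors' comparisons (fold changes, p-values) were not used. The members and gene lists were chosen with earlier results of these data known.

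Counts were rounded, filtered with filterByExpr, scaled with TMM and fitted with the quasi-likelihood test of edgeR 4.0.16 (R 4.3.3) on all 6 libraries, with Benjamini-Hochberg adjustment. The common biological coefficient of variation was 6.74%. Standard errors were taken from the F statistic. The length offset was a lowess fit (span 0.3) per library of the deviation of log2 CPM from the gene mean on log2 effective length. From each list, the called genes of a comparison whose mean reached 1 CPM in any group were ranked by absolute log2 fold change, and up to 4 were named. The steps were tested on simulated data. Of the planned marker genes, 2 are not reported here. Alternatives used DESeq2 1.42.0, limma 3.58.1 (pseudocount 1), other filters and scalings, Bonferroni adjustment, a replicate block, and each library left out. Sequences came from RefSeq (GRCh38.p14). Figures were drawn with Python 3.11.15, pandas 2.3.3, numpy 2.4.6 and matplotlib 3.10.9.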

Additional observations from a re-analysis of the deposited data

How the results depend on the processing

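The counts of calls moved with several settings. With Bonferroni adjustment 220 genes were called in SS against control, 40 in SS+NAC against control and 191 in SS against SS+NAC, and 0 members in each. With the length offset 1292 and 2019 genes and 1 and 5 members were called in SS against control and SS against SS+NAC. On log2(FPKM + 1) 137 genes were called in SS+NAC against control, and on log2(TPM + 1) 140. On log2(TPM + 1) 5952 genes and 3 members were called in SS against control, and 7114 genes and 2 members in SS against SS+NAC. Leaving out each library gave 3118 to 6579 genes and 2 to 9 members in SS against control, 98 to 1086 genes and 0 members in SS+NAC against control, and 3250 to 6339 genes and 5 to 9 members in SS against SS+NAC. The count of 1086 arose without SS+NAC replicate 1, and those of 98 and 99 without control replicate 1 and control replicate 2. The other settings (DESeq2 size factors, library totals, the DESeq2 Wald test, no filter, at least 10 counts in every library, and the compared groups only) left all 6 counts within 1.5 times. Among the members and the genes named by rank, signs reversed as follows. In SS against control HK1 was at -0.08 with library totals and on FPKM, -0.25 on TPM and between -0.06 and 0.07 with a library left out, and HK2 was at 0.06 with the length offset. In SS+NAC against control, where no member was called, PFKP was at -0.01 with DESeq2 size factors, the DESeq2 Wald test and the offset, GAPDH at 0.02 with library totals and on FPKM and 0.04 on TPM, and PKM at 0.00 with library totals and 0.01 on TPM. With a library left out PFKP ran there from -0.08 to 0.09, GAPDH from -0.15 to 0.11, ENO1 from -0.21 to 0.06 and PKM from -0.17 to 0.08. In SS against SS+NAC, SLC2A1 and HK1 were at -0.17, PFKP at -0.01 and MLX at -0.11 on TPM, and MLXIP at 0.07 with the offset. GPI and PFKM, which were not named by rank in this comparison, were at -0.06 and -0.10 on TPM. The cause of these changes was not tested. With the replicate number as a block, 4857, 211 and 5136 genes were called in SS against control, SS+NAC against control and SS against SS+NAC, with 6, 0 and 7 members. Same-numbered libraries did not deviate together (correlations of 0.11, -0.11 and -0.17 between groups). With 2 libraries per group, these values cannot show whether same-numbered cultures were handled together. The lowest count of a member was 643, and each group had 2 libraries.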
